A study of Mus musculus with 23 samples.

Results

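Spleens that carried T-cell acute lymphoblastic leukemia (T-ALL) of wild-type thymus origin were compared with normal thymus by RNA sequencing. The comparison held 20 of the 23 libraries of the series, chosen by their labels: 14 libraries labelled WT-derived T-ALL (3, 4, 5, 7, 14, 36, 48, 108, 110, 111, 120, 126, 128 and 202) and 6 labelled thymus control (1 to 6). The T-ALL libraries came from unfractionated spleens of BALB/c Rag2-/-Il2rg-/- mice, 6 to 8 weeks old when a newborn wild-type thymus lobe of the B6.Ly5.1 (CD45.1) strain was grafted under the kidney capsule, and no gene was altered in the donor thymus. The control libraries came from thymus of C57BL/6 mice labelled normal, with no graft, and their age is not given in the sources used here. The remaining 3 libraries, T-ALL of Notch3 KO thymus, entered the expression filter and the fit, to share its estimate of the spread. Their values are given only beside genes high in 1 leukemia. The labels do not say that each control library came from a separate mouse, so the p-values measure the spread between libraries. Spleen and thymus, BALB/c and C57BL/6 tissue, and leukemic and normal T cells changed together between the groups, and their effects cannot be told apart.

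Thymocytes begin as CD4- CD8- double-negative cells, in which Notch1 signaling starts the T-cell program, and pass through a CD4+ CD8+ double-positive stage in which Rag1 and Rag2 rearrange the T-cell receptor alpha gene. Cells that pass positive selection turn off the recombinase, become CD4 or CD8 single positive and leave the thymus. In T-ALL, thymocyte progenitors stop maturing and divide, often with active Notch1, which turns on Myc and with it ribosome production and nucleotide synthesis. A mouse spleen also makes red cells, platelets and granulocytes, and its red pulp macrophages clear old red cells. Mice without Rag2 and Il2rg lack mature T, B and NK cells of their own but make erythroid and myeloid cells.

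Values are given as log2 of scaled RPKM (reads per length of transcript and per size of library, scaled further by the authors within each library) plus 1, so that 0 means not detected and the differences of genes of low level are understated. Differences are T-ALL minus thymus, with the standard error (SE) and the adjusted p of limma. Of 24475 genes, 11919 passed a filter of at least 1 scaled RPKM in at least 3 of the 23 libraries. The libraries had 10154 to 11011 genes above that level. The mitochondrial share of signal was 7.30 to 24.2% in thymus and 10.3 to 45.9% in T-ALL, with T-ALL 7 highest. The thymus libraries fell into pairs whose deviations from the thymus mean ran together (r = 0.67 for 1 and 3, 0.62 for 2 and 4, 0.57 for 5 and 6, over 11919 genes). The fit took all thymus libraries as independent. If those of a pair are not, the SE and adjusted p given here may be too small. Genes of the Y chromosome were near 0 in all 6 thymus libraries (Ddx3y at most 0.04). Ddx3y was at most 0.07 in 5 leukemias (T-ALL 3, 14, 48, 111 and 202) and 3.66 to 5.14 in the other 9. Xist, of the inactive X, was 6.46 to 7.32 in thymus and 1.91 to 8.11 in T-ALL, and it did not mirror Ddx3y in every library: both were low in T-ALL 14 (Xist 3.61) and both were present in T-ALL 108 (5.15). Each spleen can hold donor and host cells, so no sex was assigned.

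The T-cell identity of both groups was checked on genes of the CD3 complex. Cd3e, a chain of the T-cell receptor complex, was 7.47, 8.0 and 8.19 (lowest, median, highest) in thymus and 6.64, 7.78 and 8.87 in T-ALL. Cd3d was 7.75, 8.02 and 8.47 in thymus and 6.91, 8.12 and 9.24 in T-ALL. The groups overlapped for both genes, and neither difference passed the test (Cd3e -0.16, SE 0.24, adjusted p = 0.59; Cd3d 0.06, SE 0.26, adjusted p = 0.86). Both groups thus held T-lineage transcripts, although most other genes of the receptor complex and its signaling were lower in T-ALL, as were the pan-T genes Cd5 and Cd6. The defining thymic epithelium genes were near 0 in both groups: Foxn1 was at most 0.06 and the thymoproteasome gene Psmb11 at most 0.27 in any library.

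Of the genes tested, 3493 were higher (29.3%) and 2657 lower (22.3%) in T-ALL at an adjusted p under 0.05, 51.6% in all (57.4% at an unadjusted p under 0.05), and the median difference of all genes was 0.08. The 14 T-ALL libraries were all above the 6 thymus libraries for 1003 genes (8.42%) and all below them for 791 (6.64%). Since most genes moved in these terms, a call alone set a single gene apart little. The counts below are read against these shares. The spread was wider among the leukemias: the median SD was 0.41 over T-ALL and 0.23 over thymus libraries, and 86.6% of genes had the larger SD in T-ALL. A fit with the erythroid marker score as a covariate called 742 genes (304 higher and 438 lower), of which 672 were also called without it and 17 had the opposite sign. That score did not overlap between the groups (0.84 to 1.63 in thymus, 3.24 to 6.79 in T-ALL), so in this fit group and erythroid content were only partly separable, and standard errors were larger. Of the 141 called genes named in the text, 98 lost the call in that fit and 4 changed sign. Examples that passed were Hes1 (4.0, adjusted p = 7.51e-04), Myc (2.86, adjusted p = 1.31e-04), Notch1 (2.33, adjusted p = 0.012), Sdc1 (4.44, adjusted p = 1.10e-04), Gzma (3.67, adjusted p = 0.0020) and Il4ra (-4.42, adjusted p = 3.16e-04). Examples that did not were Cd4 (-2.23, adjusted p = 0.19), Ccr9 (-4.19, adjusted p = 0.12), Rag1 (-3.55, adjusted p = 0.16), Heyl (3.52, adjusted p = 0.060), H2-T3 (3.69, adjusted p = 0.087) and Ccnd1 (2.06, adjusted p = 0.35).

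**Figure D1:**
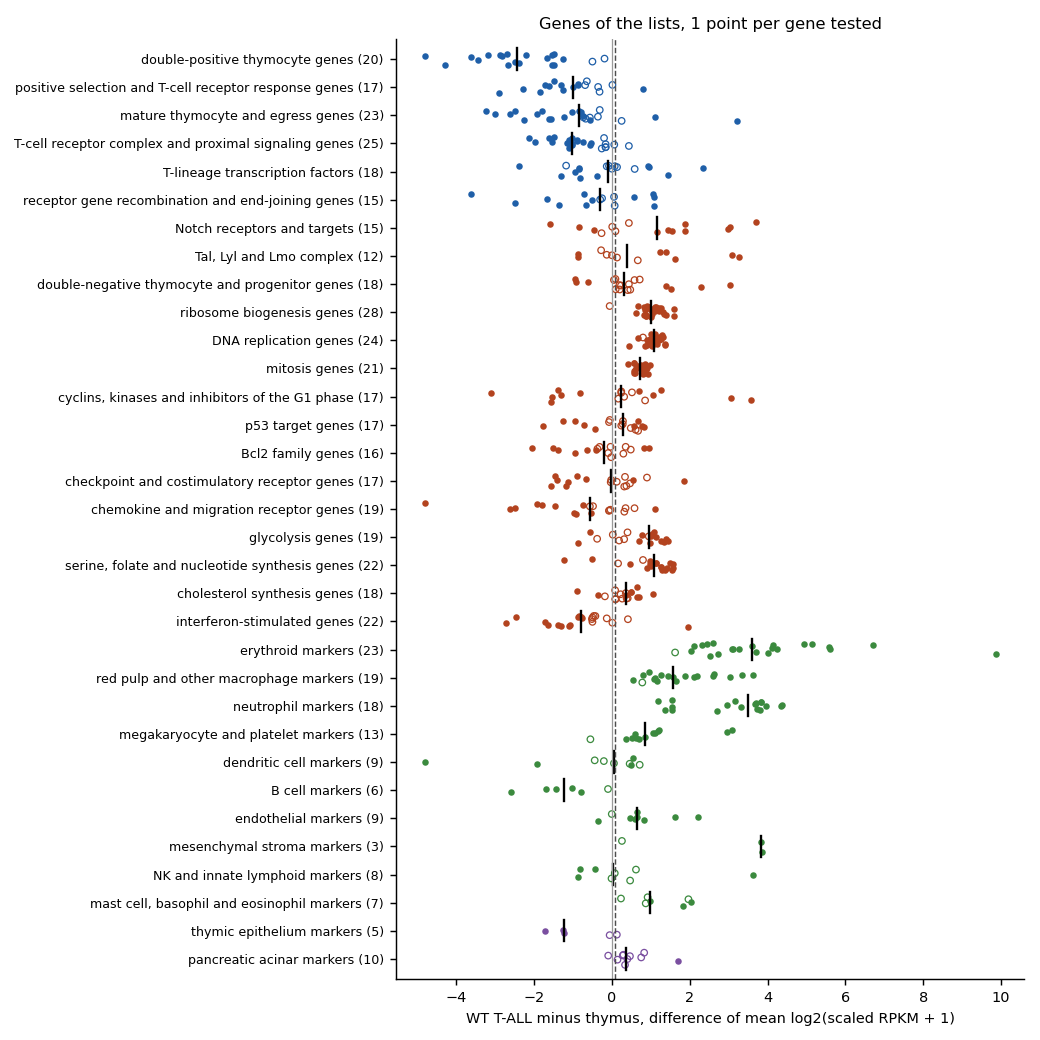
Difference between T-ALL and thymus (log2 scale) for each tested gene of the lists, 1 point per gene, grouped by list and colored by thymocyte, leukemic or host program or other tissue; filled points passed the test at an adjusted p under 0.05, bars mark list medians and the dashed line the median of all genes (0.08). The double-positive list lies low (median -2.43), growth lists lie near 1 and the erythroid (3.61) and neutrophil (3.50) lists lie highest together with the mesenchymal list, which has 3 tested genes.

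The double-positive program was the thymocyte program with the largest fall. Of its 20 genes, 18 were lower and none higher (background 22.3% lower and 29.3% higher), 16 were below thymus in every T-ALL library (background 6.64%), and the median difference was -2.43 against 0.08 over all genes. In the fit that held the erythroid score 5 were lower. The coreceptor gene Cd4 was 8.31, 8.47 and 8.86 in thymus and 1.90, 4.08 and 6.30 in T-ALL. All T-ALL libraries were below all thymus libraries, and the difference was -4.30 (SE 0.50, adjusted p = 4.12e-07). Cd8b1, the CD8 beta chain, went from 9.33, 9.61 and 9.96 to 4.55, 6.81 and 7.64, again without overlap (difference -3.18, SE 0.43, adjusted p = 3.46e-06). Cd8a fell by 2.67. Relative to thymus, Cd4 fell more than either CD8 chain.

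Ccr9, the receptor that draws progenitors and double-positive cells to the chemokine Ccl25, was 8.35, 8.80 and 9.05 in thymus and 0.80, 4.32 and 7.06 in T-ALL. The difference was -4.80 (SE 0.71, adjusted p = 9.27e-06), with no overlap and a range of over 6 units among the leukemias. Rag1, the catalytic subunit of the recombinase, was 9.75, 10.08 and 10.70 in thymus and 3.60, 7.09 and 7.84 in T-ALL (difference -3.63, SE 0.67, adjusted p = 1.15e-04). Rag1 was lowest in T-ALL 110 (3.60) and T-ALL 120 (3.64) and was between 7.55 and 7.84 in T-ALL 4, 5, 14, 36, 48 and 128. Rag2, the other subunit of the recombinase, fell by 2.48. Dntt, terminal transferase, which adds bases at the joins, fell least of these (9.31, 9.57 and 10.05 against 6.68, 7.86 and 8.82, difference -1.66, SE 0.24, adjusted p = 6.04e-06). Patz1 (-0.19, adjusted p = 0.31) and Sh2d1a (-0.50, adjusted p = 0.19) did not pass.

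The Rag1 promoter is shown because the gene carries the recombinase of the fallen program and its 300 bases hold 2 copies of the RUNX core TGTGGT. Runx factors bind this core in T cells. The window runs from 250 bases before to 50 after the RefSeq start (GRCm38.p6), 5′ to 3′ on the gene's strand, with the core in capitals.
Rag1 promoter (chr2:101649483-101649782, minus strand): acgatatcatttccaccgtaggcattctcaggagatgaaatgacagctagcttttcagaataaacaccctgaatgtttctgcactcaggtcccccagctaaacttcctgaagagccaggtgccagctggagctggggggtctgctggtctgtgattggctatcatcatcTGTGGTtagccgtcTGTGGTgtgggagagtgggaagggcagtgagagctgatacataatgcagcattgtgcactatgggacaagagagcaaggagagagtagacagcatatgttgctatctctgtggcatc
The core was present, on either strand, in 3 of the 15 double-positive genes with a promoter in the table (20%) and in 12.7% of the promoters of the genes tested, so the list was close to the background.

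Genes that mark T-cell receptor signaling during selection were also low. Of 17, 11 were lower, 1 was higher and 5 did not pass (median -1.0), and 1 was lower and none higher in the fit that held the erythroid score. Cd69, the early activation antigen that holds selected cells in the thymus, was 5.08, 5.35 and 5.70 in thymus and 1.08, 2.16 and 4.61 in T-ALL, without overlap (difference -2.91, SE 0.40, adjusted p = 3.28e-06). Egr2, an immediate early factor, fell by 2.28, Cd5, which scales with receptor signal, by 1.86, and Egr1 by 1.62. Nr4a1, another early response gene, was at -0.69 (adjusted p = 0.053). Zbtb7b, which fixes the CD4 fate, was lower by -1.30 (adjusted p = 0.030), but its call was lost when thymus 1, 2 or 4 was left out (adjusted p 0.054, 0.071 and 0.064). Ikzf2, the Helios gene, was the member that rose (0.79, adjusted p = 0.016), and it lost its call without thymus 2 and 4 (adjusted p = 0.097).

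Of 23 genes of mature thymocytes and egress, 15 were lower, 2 higher and 6 did not pass, and 4 were lower in the fit that held the erythroid score. Ms4a4b, a gene of mature T cells, fell by 3.24, Gimap3, a GTPase that helps T cells survive, by 3.01, Ccr7, the lymph node homing receptor, by 2.61 and S1pr1, the receptor for exit from the thymus, by 2.50. S1pr1 was 2.85, 3.77 and 4.35 in thymus and 0.40, 0.99 and 3.56 in T-ALL, with 13 of 14 libraries below every thymus library. Of the 2 members that rose, Ly6c1 is described here (1.08, 1.54 and 1.77 against 2.51, 4.62 and 7.13, difference 3.21, SE 0.56, adjusted p = 6.44e-05). Ly6c1 is also expressed by myeloid cells, and its value had r = 0.62 with the neutrophil score over the 14 leukemias. Chemokine and migration receptors followed the same direction, with 10 of 19 lower and 1 higher. Among them Itgae, the alpha E integrin, fell by 1.92 (thymus 1.82 to 3.48, T-ALL 0.17 to 2.66).

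The receptor complex itself was split. Of 25 genes of the complex and its proximal signaling, 18 were lower, none was higher and 7 did not pass (median -1.03), with 12 below thymus in every leukemia. The fit that held the erythroid score called 2 of them lower. Cd3d, Cd3e and Cd3g (-0.26, adjusted p = 0.45) were among those 7, whereas Cd247, the zeta chain, was 7.75, 8.06 and 8.22 in thymus and 5.62, 6.50 and 7.37 in T-ALL (difference -1.53, SE 0.21, adjusted p = 2.7e-06). Txk, a kinase that acts below the receptor, was 4.85, 5.18 and 5.60 in thymus and 1.24, 3.18 and 4.54 in T-ALL, without overlap (difference -2.13, SE 0.38, adjusted p = 9.06e-05). Cd6, a receptor of the same family as Cd5, fell by 1.62. With quantile-normalized values Cd3g also passed as lower (-0.76, adjusted p = 0.0061).

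Transcription factors of the T lineage moved both ways. Of 18, 7 were lower, 4 higher and 7 did not pass, against 22.3% lower and 29.3% higher in the background. The 4 higher became 1 without thymus 1 and 3 and 2 without thymus 5 and 6, and in the fit that held the erythroid score 1 was lower and none higher. Satb1, a chromatin organizer of double-positive cells, was 8.71, 8.92 and 9.32 in thymus and 5.69, 6.59 and 7.79 in T-ALL (difference -2.38, SE 0.21, adjusted p = 8.72e-09). Bcl11b, which commits cells to the T lineage, fell by 1.31, Sox4 by 0.96 and Tcf7, the TCF-1 gene downstream of Notch, by 0.84. Sox4 changed sign in the fit that held the erythroid score, to a difference of +0.32 that did not pass (adjusted p = 0.77). Tcf7 was still high in every leukemia (8.15, 9.09 and 9.65, against 9.69, 9.89 and 10.18 in thymus). Tox2 rose (0.58, 0.70 and 1.11 against 1.82, 3.14 and 4.42, difference 2.35, SE 0.30, adjusted p = 1.19e-06), as did Sox13, a factor of gamma delta T cells (1.43, adjusted p = 0.012). Gata3 (0.07, adjusted p = 0.82) and Lef1 (0.59, adjusted p = 0.064) did not pass. The call of Sox4 was lost without thymus 5 and 6, that of Sox13 without thymus 1 and 3 or without 5 and 6, and Lef1 passed without T-ALL 7 (adjusted p = 0.024) or 110 (0.025).

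Ikzf1, the Ikaros gene, was chosen after its values were seen, because the leukemias differed so much in it. It was 7.20, 7.48 and 7.70 in thymus and 1.79, 6.54 and 7.90 in T-ALL. The low end was T-ALL 36 (1.79) and T-ALL 5 (3.01), and the other 12 lay between 6.14 and 7.90, so the difference of -1.18 (SE 0.66) did not pass (adjusted p = 0.14).

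Recombination and end-joining genes were also divided, with 7 of 15 lower, 4 higher and 4 not passing, and none passed in the fit that held the erythroid score. Beside Rag1, Rag2 and Dntt, Dclre1c (Artemis, which opens hairpin ends) fell by 1.36. The Ku subunit genes moved the other way: Xrcc5 rose by 1.08 (3.22 to 4.22 in thymus, 4.02 to 5.93 in T-ALL) and Xrcc6 by 1.07, with 12 of 14 leukemias above every thymus library for each. Without thymus 5 and 6, 4 recombination genes were lower in place of 7.

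**Figure D2:**
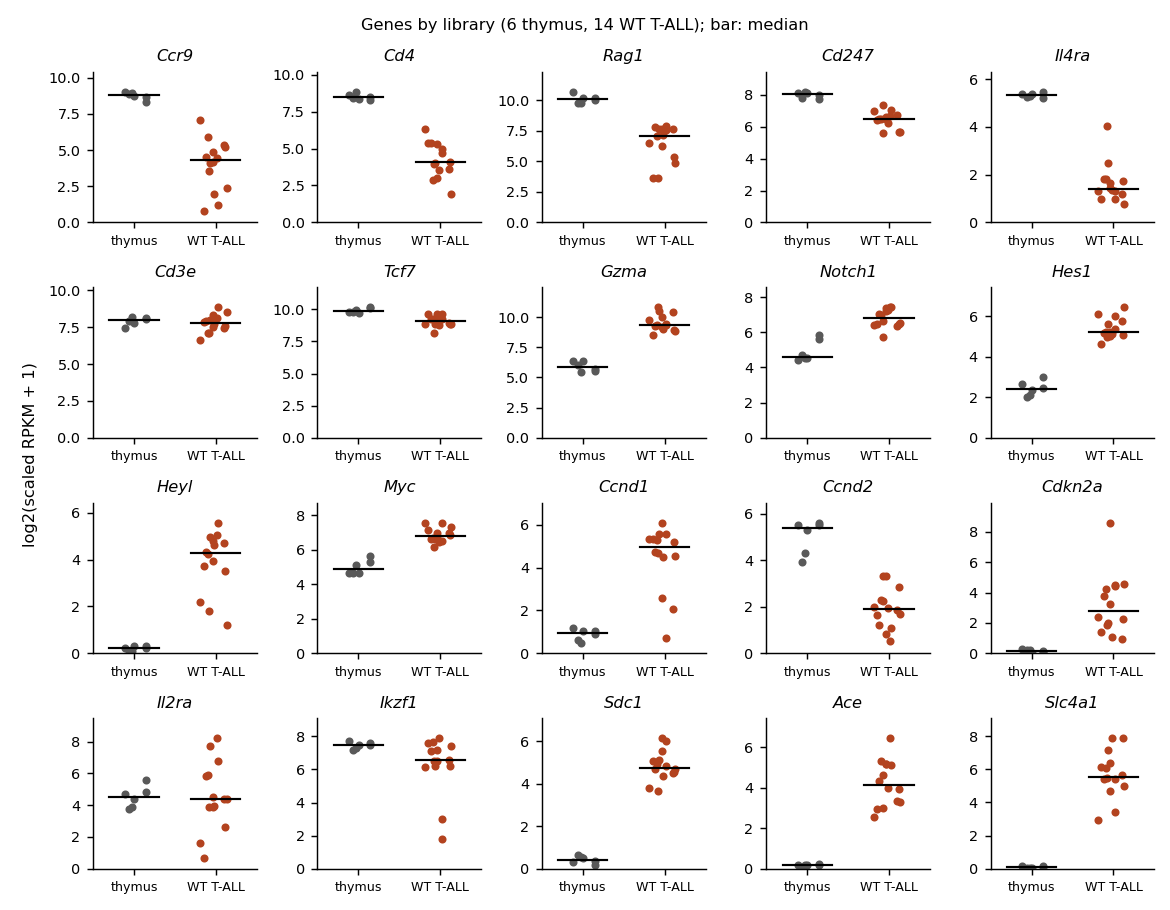
Levels of 20 genes in every library (log2 of scaled RPKM plus 1), with thymus and T-ALL as separate points and a bar at each median. Ccr9, Cd4, Rag1, Cd247, Il4ra and Ccnd2 lie lower in all 14 leukemias, and Gzma, Hes1, Heyl, Myc, Cdkn2a, Sdc1, Ace and Slc4a1 lie higher in all 14. Il2ra, Ikzf1, Ccr9 and Cdkn2a spread over more than 6 units within T-ALL.

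By a fixed rule, the 10 genes with the largest falls over the whole table were named from 635 that were called, did not overlap and had a mean of at least 5 scaled RPKM in thymus. They were Dgkeos, Ccr9, Arl5c, Tdrp, Cd4, Slc6a19, Wdr78, Dhrs3, BB031773 and Il4ra. Dgkeos (chromosome 11, 89060751 to 89067884) had the largest fall, from 5.61, 6.12 and 6.68 to 0.00, 0.22 and 1.10 (difference -5.81, SE 0.17, adjusted p = 4.94e-18). It is named for lying opposite the gene Dgke, and how the counting used strand is not given in the sources used here. Arl5c, of the ADP-ribosylation factor family, fell by 4.67 and Tdrp by 4.38, with thymus 6 apart and highest for Tdrp.

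Slc6a19, an amino acid transporter best known from gut and kidney (chromosome 13, 73679745 to 73700780), was 3.94, 4.37 and 4.69 in thymus and 0.00, 0.31 and 0.77 in T-ALL (difference -4.07, SE 0.19, adjusted p = 5.93e-14). Dhrs3, which reduces retinaldehyde, fell by 3.87, and among the leukemias its level ran with the macrophage score (r = 0.79). Il4ra, the interleukin 4 receptor chain (chromosome 7, 125552271 to 125579474), was 5.21, 5.33 and 5.48 in thymus and 0.78, 1.40 and 4.04 in T-ALL (difference -3.69, SE 0.31, adjusted p = 3.01e-09). Wdr78 (chromosome 4, 103038065 to 103114299) fell by 3.93 and BB031773 (chromosome 4, 103004106 to 103011965), which lies close by, by 3.86. BB031773 was at most 0.05 in any leukemia and at least 3.10 in any thymus library.

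Of 15 tested genes of the Notch pathway, 8 were higher, 3 lower and 4 did not pass (median 1.16), against 29.3% higher in the background, and 3 were above thymus in every leukemia. In the fit that held the erythroid score 4 were higher and none lower. Notch1 itself was 4.40, 4.62 and 5.84 in thymus and 5.75, 6.80 and 7.43 in T-ALL. All but 1 of the leukemias lay above every thymus library (difference 1.87, SE 0.24, adjusted p = 1.58e-06), and the highest thymus values were those of thymus 2 and 4. Notch3 rose by 1.44 (adjusted p = 5.86e-04).

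Hes1, the repressor most directly induced by Notch, was 2.02, 2.40 and 3.00 in thymus and 4.61, 5.23 and 6.46 in T-ALL. Its lowest leukemia was more than 1 unit above the highest thymus library (difference 2.98, SE 0.31, adjusted p = 8.78e-08). Heyl, a related repressor, was 0.11, 0.21 and 0.30 in thymus and 1.21, 4.29 and 5.58 in T-ALL (difference 3.70, SE 0.49, adjusted p = 2.31e-06). Dtx1, the Deltex gene, rose by 3.04, with 13 of 14 leukemias above thymus. Myc went from 4.63, 4.89 and 5.64 to 6.14, 6.82 and 7.59 without overlap (difference 1.87, SE 0.21, adjusted p = 1.6e-07). Nrarp, a feedback inhibitor, was above thymus in 12 leukemias and below it in 2 (difference 1.53, adjusted p = 0.014), and it lost its call without thymus 5 and 6 (adjusted p = 0.066). Lfng and Maml1, which modify the receptor and assist its transcription complex, were lower (-1.58 and -0.85).

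Ptcra, the pre-T-cell receptor alpha gene and a Notch target, was chosen after its values were seen. It was 4.28, 4.52 and 4.78 in thymus and 1.37, 5.24 and 6.53 in T-ALL. With 9 leukemias above and 4 below every thymus library, the difference of 0.44 did not pass (adjusted p = 0.59). Il2ra, the CD25 gene of double-negative cells, behaved alike: 3.78, 4.54 and 5.57 in thymus and 0.71, 4.40 and 8.23 in T-ALL (difference 0.09, adjusted p = 0.94). It was high in T-ALL 36 (8.23), 48 (7.75) and 5 (6.81) and low in T-ALL 120 (0.71) and 7 (1.61). Of 18 double-negative and progenitor genes tested, 4 were higher, 3 lower and 11 did not pass, and Kit (0.47, adjusted p = 0.30) and Cd44 (0.58, adjusted p = 0.20) were among the latter. Over the leukemias, 6 of the 18 ran with a host cell score (described below) at r of 0.7 or more.

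Genes of the Tal, Lyl and Lmo complex, oncogenic in human T-ALL and normal factors of red cells and platelets, were higher in part: 5 of 12 tested rose, 2 fell and 5 did not pass. Lmo2 was 0.40, 0.83 and 1.08 in thymus and 2.90, 4.17 and 5.70 in T-ALL (difference 3.28, SE 0.32, adjusted p = 4.01e-08). Tal1 was 0.00, 0.08 and 0.20 in thymus and 1.86, 3.15 and 5.05 in T-ALL (difference 3.09, SE 0.37, adjusted p = 4.83e-07). Neither overlapped. Over the 14 leukemias Lmo2 and Tal1 ran with the erythroid score (r = 0.80 and 0.79), and Lyl1 (difference 1.62, adjusted p = 4.37e-04) ran with the neutrophil score (r = 0.88). In the fit that held the erythroid score, the differences were 0.79 for Lmo2, 0.27 for Tal1 and 0.51 for Lyl1, and none passed. Lmo4, which did not run with any of the host scores at r of 0.7 or more, rose by 1.23 (5.13 to 5.73 in thymus, 5.30 to 8.24 in T-ALL, adjusted p = 0.0027). With the erythroid score held, its difference was not smaller, but its call was lost (1.74, SE 0.71, adjusted p = 0.14). No member of the list passed in that fit, in either direction. Group and erythroid score were only partly separable there, so a lost call does not place a gene in host cells. Gfi1b, a factor of red cells and platelets, rose by 2.30 without overlap.

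Ribosome biogenesis rose as a group. Of 28 genes, 27 were higher and none lower, 16 were above thymus in every leukemia (background 8.42%), and the median difference was 1.01. The fit that held the erythroid score called 6 of them higher. Npm1, nucleophosmin, was 9.01, 9.10 and 9.67 in thymus and 10.11, 10.68 and 12.06 in T-ALL, without overlap (difference 1.60, SE 0.23, adjusted p = 7.35e-06). Gnl3, nucleostemin, was 4.68, 4.86 and 5.10 in thymus and 5.71, 6.40 and 7.73 in T-ALL (difference 1.59, SE 0.22, adjusted p = 2.83e-06). Nop58, a protein of methylation guide particles, rose by 1.39, and Pes1 and Nop2, factors of the large subunit, by 0.93 and 1.02. Wdr12, which acts with Pes1, was the member that did not pass (-0.06, adjusted p = 0.82, with thymus 3 apart and highest). Ncl, nucleolin, rose by 0.89 (adjusted p = 0.011), but the call was lost without thymus 6 (adjusted p = 0.051) and with quantile-normalized values (0.079).

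The promoters of Pes1 and Nop2, and of the purine enzyme Paics, which follows with its pathway, are shown because each holds the E-box CACGTG, the letters that Myc with Max is known to bind, and each gene rose. The windows, build and strand are as for Rag1, with the E-box in capitals.
Pes1 promoter (chr11:3963725-3964024, plus strand): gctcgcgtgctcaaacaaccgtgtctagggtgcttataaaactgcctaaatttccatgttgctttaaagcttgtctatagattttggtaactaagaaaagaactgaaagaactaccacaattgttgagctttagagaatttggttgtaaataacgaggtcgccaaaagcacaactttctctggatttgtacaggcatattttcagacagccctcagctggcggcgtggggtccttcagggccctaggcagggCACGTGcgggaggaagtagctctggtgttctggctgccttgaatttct
Nop2 promoter (chr6:125131633-125131932, plus strand): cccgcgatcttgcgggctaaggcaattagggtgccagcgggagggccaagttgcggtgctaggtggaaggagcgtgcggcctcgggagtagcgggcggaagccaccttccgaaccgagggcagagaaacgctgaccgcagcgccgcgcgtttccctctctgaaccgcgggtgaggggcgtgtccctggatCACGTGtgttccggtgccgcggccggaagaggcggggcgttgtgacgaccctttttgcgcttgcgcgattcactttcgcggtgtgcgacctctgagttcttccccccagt
Paics promoter (chr5:76951052-76951351, plus strand): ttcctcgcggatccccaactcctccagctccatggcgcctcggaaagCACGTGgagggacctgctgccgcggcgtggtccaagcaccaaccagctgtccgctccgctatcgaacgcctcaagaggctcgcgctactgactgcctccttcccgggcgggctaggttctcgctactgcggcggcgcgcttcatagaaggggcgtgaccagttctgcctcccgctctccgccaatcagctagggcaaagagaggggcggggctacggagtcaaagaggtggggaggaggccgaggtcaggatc
The E-box occurred in 6 of 23 ribosome biogenesis genes with a promoter in the table (26.1%) and in 4 of 18 serine, folate and nucleotide synthesis genes (22.2%), against 10.3% of 9582 tested genes and 7.24% of all 27025 promoters. It was not particular to these lists, being found in 4 of 9 dendritic cell genes (44.4%), 3 of 13 p53 targets (23.1%) and 3 of 14 checkpoint and costimulatory receptor genes (21.4%). It lay in 11.1% of the promoters of genes called higher and 10.2% of those called lower. A match to these letters is a description of the window and no measure of binding.

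Supply pathways for growth moved in the same direction. Of 22 genes of serine, folate and nucleotide synthesis, 18 were higher and 2 lower (the count of lower genes was 1 without thymus 5 or 6). In the fit that held the erythroid score 2 were higher and none lower. Shmt2, the mitochondrial serine hydroxymethyltransferase, was 4.51, 5.07 and 5.58 in thymus and 5.84, 6.55 and 7.14 in T-ALL, without overlap (difference 1.55, SE 0.20, adjusted p = 1.22e-06). Cad, the first enzyme of pyrimidine synthesis, rose by 1.58, Psat1 and Phgdh of the serine pathway by 1.49 and 1.12, and Paics by 1.14 (5.49, 6.33 and 6.90 against 6.65, 7.52 and 8.32, above every thymus library in 12 of 14). Glycolysis had 11 of 19 genes higher, 2 lower and 6 not passing, and none passed in the fit that held the erythroid score. Tpi1 rose by 1.45, with thymus 6 apart and lowest, and Hk2 by 1.39, both without overlap, and the glucose transporter Slc2a3 rose by 1.33. Slc2a1, the other glucose transporter of the list, was lower by -0.55 (adjusted p = 0.015), a call that was lost without thymus 5 and 6.

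Gapdh rose by 1.13 (9.35, 9.63 and 9.80 against 9.77, 10.72 and 11.70), but by 0.35 with quantile-normalized values, where it did not pass (adjusted p = 0.068). Cholesterol synthesis was mixed, with 7 of 18 higher and 2 lower (1 lower without any one of thymus 1 to 5). Sqle, squalene epoxidase, rose by 1.06 and Dhcr7, the last step, fell by 0.89. Without thymus 1, 2 or 6 the count of higher genes was 4, 3 and 4 in place of 7.

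Cell division genes were higher with 1 exception. Of 24 DNA replication genes 23 were higher, 12 of them without overlap (median 1.09), and all 21 mitosis genes were higher, 1 of them without overlap (median 0.73). When the erythroid score was held, 1 gene of each list was higher. Gins2, of the replicative helicase, was 3.19, 3.85 and 4.45 in thymus and 4.56, 5.22 and 6.22 in T-ALL, without overlap (difference 1.37, SE 0.20, adjusted p = 9.84e-06). Cdc6, which loads the helicase, rose by 1.31 and Mcm2, a helicase subunit, by 0.90. Ccnb1, the mitotic cyclin, rose by 0.97, with thymus 6 apart and lowest, and Plk1, the mitotic kinase, by 0.93. Mki67, the Ki-67 antigen, was 6.13, 6.79 and 7.17 in thymus and 6.56, 7.37 and 8.06 in T-ALL. The groups overlapped (difference 0.60, SE 0.20, adjusted p = 0.016), and the call was lost without thymus 6 (adjusted p = 0.063) and with quantile-normalized values (0.33, adjusted p = 0.21). Tyms, thymidylate synthase, was the replication gene that did not pass (0.80, adjusted p = 0.053), and it passed without thymus 1 (1.03, adjusted p = 0.018).

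Of the D-type cyclins, which drive G1 with Cdk4 and Cdk6, Ccnd1 rose while Ccnd2 and Ccnd3 fell. Ccnd1 was 0.50, 0.97 and 1.16 in thymus and 0.71, 4.97 and 6.11 in T-ALL, above thymus in all leukemias except T-ALL 5 (0.71), with a difference of 3.58 (SE 0.58, adjusted p = 2.96e-05). Ccnd2 went from 3.93, 5.41 and 5.63 to 0.54, 1.90 and 3.35 (difference -3.12, SE 0.37, adjusted p = 6.07e-07). Ccnd3 went from 8.14, 8.41 and 9.07 to 6.18, 7.00 and 8.08 (difference -1.53, SE 0.26, adjusted p = 3.9e-05). Ccnd2 and Ccnd3 did not overlap between the groups. Per length of transcript, Ccnd3 was the most abundant of these cyclins in thymus and, by its median, also in T-ALL. Among the leukemias Ccnd2 ran with the macrophage score (r = 0.76).

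Cdk4 rose by 1.27 without overlap, and Cdk6 was at 0.85 (adjusted p = 0.068, and 0.024 without T-ALL 7). Of the inhibitors, Cdkn1b (p27) fell by 1.57 and Cdkn2a, the Ink4a and Arf locus, rose. Cdkn2a was 0.05, 0.16 and 0.26 in thymus and 0.97, 2.80 and 8.62 in T-ALL, without overlap (difference 3.07, SE 0.85, adjusted p = 0.0045). T-ALL 126 was at 8.62, and the next leukemia at 4.56. In all, 5 of 17 G1 genes were higher and 6 lower, and 9 of these did not overlap.

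Of 16 Bcl2 family genes, 6 were lower, 2 higher and 8 did not pass (median -0.21). Bcl2l1, the Bcl-xL gene that keeps double-positive cells alive, was 5.85, 6.03 and 6.44 in thymus and 2.59, 4.10 and 4.94 in T-ALL (difference -2.06, SE 0.28, adjusted p = 2.63e-06). Bcl2 fell by 1.38 and Mcl1 by 0.63, so these survival genes were all lower. The killers Bmf (-1.52) and Bid (0.96) went opposite ways. Of 17 p53 targets, 4 were higher, 5 lower and 8 did not pass, near the background. Btg2, an antiproliferative target, fell by 1.77 and Trp53inp1 by 1.25, Mdm2 by 0.71, and Bax rose by 0.82, while Trp53 itself rose by 0.66 (adjusted p = 4.0e-04).

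Checkpoint and costimulatory receptors had 7 of 17 lower and 2 higher (the count of higher genes was 1 without any single thymus library). Cd160 was 0.78, 1.51 and 1.97 in thymus and 2.03, 3.20 and 4.88 in T-ALL, without overlap (difference 1.86, SE 0.36, adjusted p = 1.65e-04). Tnfrsf9 (4-1BB) fell by 1.58 and Tnfrsf18 (GITR) by 1.47. Pdcd1, the PD-1 gene, was 2.30, 3.18 and 3.42 in thymus and 2.52, 3.53 and 4.24 in T-ALL. The groups overlapped and the difference of 0.46 (SE 0.25) did not pass (adjusted p = 0.12), nor did that of Ctla4 (0.90, adjusted p = 0.20). Without thymus 1 and 3 the count of lower genes was 4.

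Interferon-stimulated genes were lower, 13 of 22, with 1 higher and 8 not passing (median -0.79), and 5 were lower in the fit that held the erythroid score. Ifit3 was 2.11, 3.10 and 3.72 in thymus and 0.22, 0.57 and 0.96 in T-ALL (difference -2.47, SE 0.18, adjusted p = 3.07e-10). Ifit1 fell by 2.72, Rtp4 by 1.73 and Irf7, the factor that amplifies the response, by 1.40. Rsad2, the viperin gene, was the member that rose (1.14, 1.88 and 2.14 against 1.31, 3.69 and 6.03, difference 1.95, SE 0.56, adjusted p = 0.0061). Its level ran with the erythroid score (r = 0.88), and in the fit that held this score the difference was -2.76 (adjusted p = 0.0095).

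Host spleen cell genes made up the largest rises. For each gene the correlation with 6 host scores was taken over the 14 leukemias, each score being the mean of a marker list (erythroid, neutrophil, macrophage, megakaryocyte, endothelial, mesenchymal), and a gene with r of at least 0.7 for any of them was said to follow the host. Members of a list help to form its score, so their own following is built in. Of the 3493 higher genes 543 followed (15.5%) and 2950 did not, against 1148 of all 11919 (9.63%) and 119 of the 2657 lower genes (4.48%). Without T-ALL 110, which had the highest neutrophil score, 523 of the higher genes followed. In bulk RNA, fewer cells of a type and less RNA per cell cannot be told apart.

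**Figure D3:**
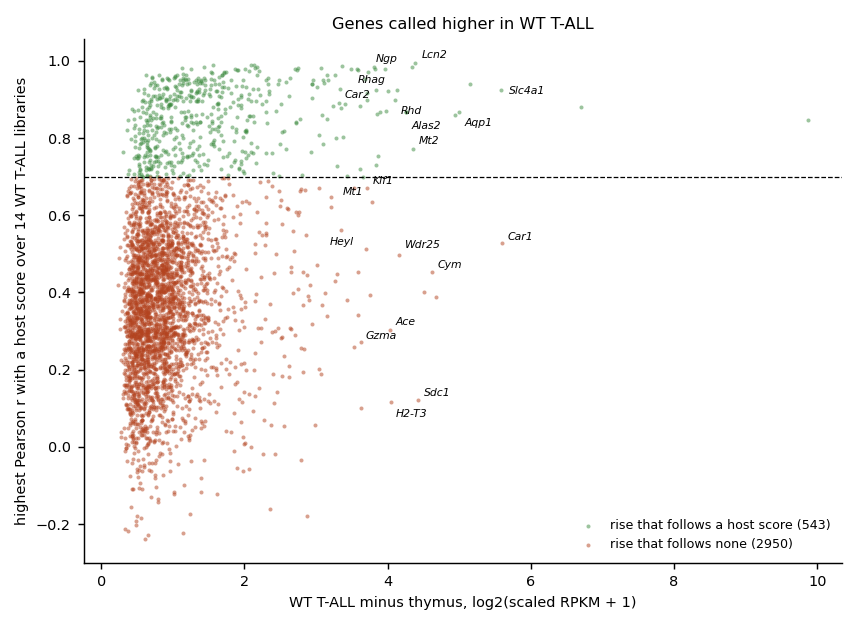
Difference between T-ALL and thymus (log2 scale) (horizontal) of each called rise and its highest correlation (vertical) with the 6 host scores over the 14 leukemias; the dashed line marks r = 0.7. The 543 genes above the line include the largest rises, and 2950 genes lie below it.

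Erythroid genes led. Of 23 tested, 22 were higher and 21 were above thymus in every leukemia (median 3.61), and the adult beta globin gene Hbb-bs had the largest difference of all genes tested. It was 0.00, 1.40 and 4.97 in thymus and 8.08, 11.47 and 14.50 in T-ALL (difference 9.87, SE 0.80, adjusted p = 2.37e-09). Hba-a2, an alpha globin gene, rose by 6.71, and its near-identical partner Hba-a1 did not pass. Reads of these copies may be split between them. All hemoglobin genes together took 0.00934 to 0.117% of the signal in thymus and 0.0874 to 5.92% in T-ALL.

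Hemoglobin, T-cell receptor, immunoglobulin, ribosomal protein and predicted genes were left out of the naming of largest changes over the whole table. Among the 10 largest other rises that followed a host score were Slc4a1, Aqp1, Alas2, Lcn2, Mt2, Ngp, Rhag, Rhd and Car2. Most are red cell genes. Slc4a1, the band 3 anion exchanger (chromosome 11, 102348820 to 102365281), was 0.02, 0.09 and 0.18 in thymus and 2.95, 5.55 and 7.89 in T-ALL (difference 5.59, SE 0.56, adjusted p = 6.76e-08). The water channel gene Aqp1 rose by 5.00 and the ammonium channel Rhag by 4.14. Alas2, the first enzyme of heme synthesis, was 0.16, 0.31 and 1.64 in thymus and 2.35, 5.57 and 7.86 in T-ALL (difference 4.95, SE 0.70, adjusted p = 5.46e-06), the high thymus value being that of thymus 3. Mt2, a metallothionein, rose by 4.36 and Car2, a carbonic anhydrase, by 4.00. The erythroid regulators Gata1 (2.51) and Klf1 (3.71) also rose without overlap.

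The promoters of Epor, Alas2 and Rhd are shown because the 3 genes rose by 2.59, 4.95 and 4.11 without overlap and each window holds the GATA motif AGATAA and the CACCC box, letters known to be bound by Gata1 and Klf1. Capitals mark both motifs on either strand, so that TTATCT and GGGTG are the same motifs read from the other strand. Windows and build are as above.
Epor promoter (chr9:21963527-21963826, minus strand): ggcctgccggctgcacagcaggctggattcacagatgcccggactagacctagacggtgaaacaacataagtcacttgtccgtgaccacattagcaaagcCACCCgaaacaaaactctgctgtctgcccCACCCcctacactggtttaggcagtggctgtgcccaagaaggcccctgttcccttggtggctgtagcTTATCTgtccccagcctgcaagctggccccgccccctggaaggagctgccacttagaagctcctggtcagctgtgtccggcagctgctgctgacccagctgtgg
Alas2 promoter (chrX:150547167-150547466, plus strand): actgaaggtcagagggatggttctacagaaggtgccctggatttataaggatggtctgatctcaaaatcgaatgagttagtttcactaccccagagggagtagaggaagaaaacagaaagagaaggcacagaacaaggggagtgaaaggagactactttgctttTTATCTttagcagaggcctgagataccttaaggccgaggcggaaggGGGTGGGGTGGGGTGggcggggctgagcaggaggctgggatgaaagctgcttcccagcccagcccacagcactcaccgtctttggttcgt
Rhd promoter (chr4:134864286-134864585, plus strand): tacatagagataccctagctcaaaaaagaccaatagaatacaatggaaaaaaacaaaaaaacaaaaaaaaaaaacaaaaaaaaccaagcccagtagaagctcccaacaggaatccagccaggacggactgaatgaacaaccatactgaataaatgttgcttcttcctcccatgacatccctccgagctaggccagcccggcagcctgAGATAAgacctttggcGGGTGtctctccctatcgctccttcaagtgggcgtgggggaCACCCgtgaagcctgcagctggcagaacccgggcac
AGATAA was found in 7 of 18 erythroid genes with a promoter in the table (38.9%) and in 4 of 11 megakaryocyte genes (36.4%), against 6.74% of tested genes and 11.4% of all promoters. Lists of other cell types had similar shares, with 4 of 10 mast cell, basophil and eosinophil genes (40%) and 3 of 9 pancreatic acinar genes (33.3%). CACCC is short and common, with 88.9% of erythroid genes against 62.3% of tested genes.

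Macrophage genes were higher in 18 of 19, 4 without overlap (median 1.57). Cd5l, made by tissue macrophages, was 0.10, 0.41 and 0.51 in thymus and 2.33, 3.93 and 5.34 in T-ALL (difference 3.62, SE 0.35, adjusted p = 3.43e-08). Hmox1, which breaks down heme, rose by 3.34, the iron carrier Trf by 3.04, Vcam1 by 2.63 and Spic, the factor of red pulp macrophages, by 2.19. Thymus 5 and 6 had the lowest macrophage scores (0.85 to 0.89, against 1.8 to 2.1 in the other 4), and without them 7 genes were higher in place of 18.

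Neutrophil genes were all higher, 18 of 18, with 9 free of overlap (median 3.50). Lcn2, lipocalin 2, was 0.61, 2.57 and 3.52 in thymus and 4.26, 6.22 and 11.33 in T-ALL (difference 4.38, SE 0.84, adjusted p = 1.94e-04). Ngp, a granule protein gene, rose by 4.34, S100a9 and S100a8 by 3.96 and 3.82, and Mpo, myeloperoxidase of early granulocytes, by 3.71. T-ALL 110 had the highest neutrophil score, 9.24, and T-ALL 108 the next, 7.39. Megakaryocyte and platelet genes had 12 of 13 higher, such as the platelet chemokines Ppbp (3.09) and Pf4 (2.95). Endothelial genes had 7 of 9 higher, with a rise of 2.21 for Egfl7, and 1 lower, a call that was lost without any single thymus library. Dendritic cell genes had 2 of 9 higher (Zbtb46 and Clec9a) and 2 lower, the latter being Ccr9 and Itgae, which are also members of the thymocyte or migration lists given above, and mast cell, basophil and eosinophil genes had 3 of 7 higher and none lower.

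Of the mesenchymal list 3 of 14 genes were tested. Col1a2 (0.00, 0.05 and 0.10 against 0.63, 4.09 and 6.62, difference 3.85) and Pdgfrb (0.98, 1.05 and 1.64 against 2.08, 5.09 and 6.58, difference 3.84) rose, and Cxcl12, the third tested, was 0.03 to 1.31 in the leukemias and did not pass. Of the 14 members 9 were below 1 scaled RPKM in all 20 libraries, and Col1a1 was at most 0.74 and Pdgfra at most 0.12. The mesenchymal score thus rested mainly on Col1a2 and Pdgfrb, and 25 of the 3493 higher genes followed it. The pancreatic acinar score, taken because pancreas lies beside the spleen, was 0.13 to 0.24 in thymus and 0.12 to 2.69 in T-ALL, highest in T-ALL 48, and 1 of 10 acinar genes was higher.

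B-cell markers were lower. Of 12 B-cell genes with values, 6 were tested, and 5 were below 1 scaled RPKM in all 20 libraries. Among the tested genes 5 were lower and none higher, with 5 below thymus in every leukemia (median -1.23). A gene near 0 in T-ALL could pass the expression filter mainly through thymus. The count of falls was thus partly set by the filter and is not read against the background. The B-cell score was 0.87 to 1.17 in thymus and 0.13 to 0.39 in T-ALL. Cd79b, a chain of the B-cell receptor, was 3.51, 3.83 and 3.97 in thymus and 0.38, 1.12 and 2.71 in T-ALL (difference -2.60, SE 0.26, adjusted p = 3.62e-08). Ms4a1 (CD20) was 0.59 to 2.24 in thymus and at most 0.05 in T-ALL. Of 8 NK and innate lymphoid genes 3 were lower and 1 higher: Klrb1c (NK1.1) fell by 0.87 and Prf1, perforin, by 0.82, and the NK gene Ncr1 was at most 0.08 in T-ALL. Without thymus 3, 1 NK gene was lower in place of 3.

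Gzma, granzyme A of cytotoxic lymphocytes, was the NK list member that rose. It was 5.42, 5.85 and 6.40 in thymus and 8.54, 9.37 and 10.84 in T-ALL (chromosome 13, 113093824 to 113100981, difference 3.62, SE 0.30, adjusted p = 2.03e-09). All leukemias were thus more than 2 units above the highest thymus library while perforin was lower. Gzma followed none of the 6 host scores (highest r 0.27). The NK score, which Gzma helps to form, was not among those 6, so a link to such cells was not tested. Of thymic epithelium genes 5 of 17 were tested and 3 were lower, Epcam by -1.72 and Cldn4 by -1.23 among them. The call of Cldn4 was lost without any of the thymus pairs.

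**Figure D4:**
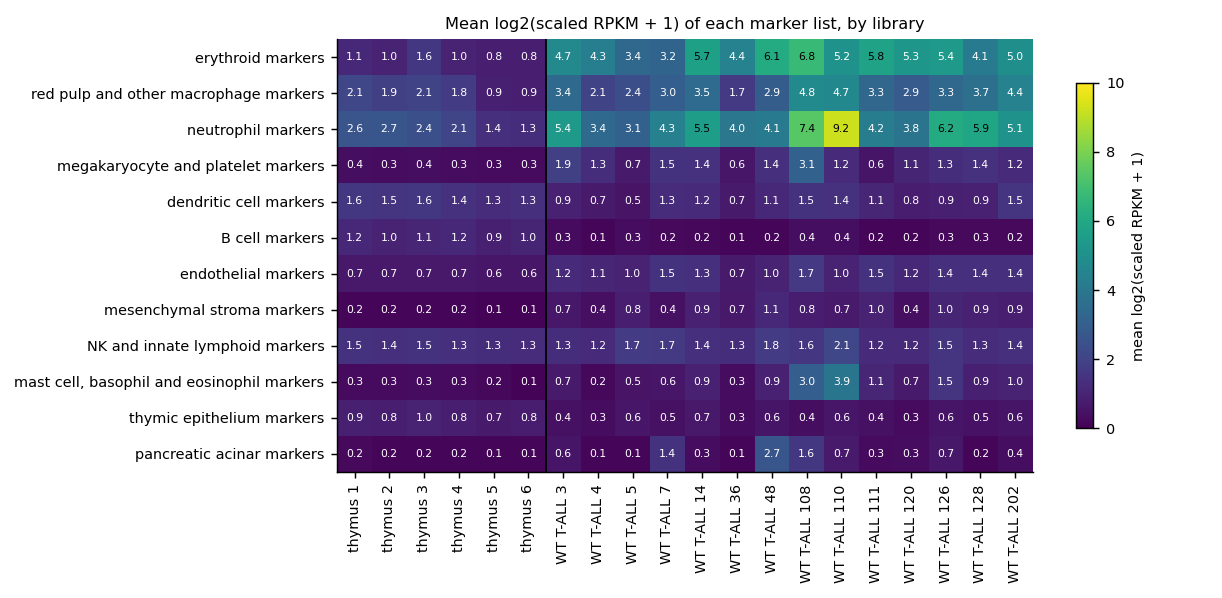
Mean log2 level of 12 marker lists (rows) in each of the 6 thymus and 14 T-ALL libraries (columns), shown as color with the value printed. Erythroid scores are 0.84 to 1.63 in thymus and 3.24 to 6.79 in T-ALL, B-cell scores run the other way (0.87 to 1.17 and 0.13 to 0.39), and the neutrophil score of T-ALL 110 (9.24) stands highest.

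The 10 largest rises that followed no host score were Car1, Cym, Sdc1, Wdr25, H2-T3, Ace, Mt1, Klf1, Heyl and Gzma, from 565 that met the same rule. Car1 (difference 5.60, highest r 0.53) and Klf1 (3.71, r 0.67) are nevertheless erythroid genes, so following no score at 0.7 did not make a gene free of host cells. Sdc1, syndecan-1 (chromosome 12, 8771396 to 8793716), was 0.18, 0.43 and 0.65 in thymus and 3.68, 4.77 and 6.16 in T-ALL (difference 4.43, SE 0.27, adjusted p = 1.08e-11), and its highest r was 0.12. Sdc1 is best known as CD138 of plasma cells and is also made by other cell types, and its source in these spleens was not tested.

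Ace, angiotensin-converting enzyme (chromosome 11, 105967948 to 105989964), was 0.11, 0.19 and 0.25 in thymus and 2.55, 4.13 and 6.45 in T-ALL (difference 4.04, SE 0.45, adjusted p = 2.52e-07). H2-T3, which encodes a nonclassical class I molecule known as thymus leukemia antigen (chromosome 17, 36185571 to 36190151), was 0.43, 0.77 and 1.28 in thymus and 3.24, 4.55 and 7.00 in T-ALL (difference 4.04, SE 0.57, adjusted p = 5.6e-06). The gene lies in the major histocompatibility complex, where the BALB/c host strain differs from the donor and control strains. Wdr25 (chromosome 12, 108894152 to 109028454) was 0.87, 1.16 and 1.29 in thymus and 3.46, 5.49 and 6.10 in T-ALL (difference 4.16, SE 0.37, adjusted p = 8.17e-09). None of these 3 overlapped between the groups.

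Cym, chymosin of the stomach (chromosome 3, 107211295 to 107221732), was 0.04, 0.07 and 0.17 in thymus and 0.54, 4.89 and 7.44 in T-ALL (difference 4.62, SE 0.85, adjusted p = 1.17e-04). No leukemia overlapped with thymus, and the leukemias spanned nearly 7 units. Mt1, like Mt2 a metallothionein, rose by 3.78.

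The share of called genes differed between chromosomes. On chromosome 15, which holds Myc, 211 of 472 tested genes were higher (44.7%, against 29.3% of all), with a median difference of 0.39. For each library the median of a chromosome's genes, relative to the thymus mean and less the median over all genes, was taken. For chromosome 15 it was -0.0373 to 0.0219 in thymus and above 0.15 in 11 of 14 leukemias, where it reached 0.472. It was near 0 or below in T-ALL 5, 36 and 48. For chromosome 14 it was above 0.15 in T-ALL 7, 14, 48 and 111 and at most 0.0472 in thymus. For chromosome 18 it was below -0.15 in T-ALL 108, 110, 126 and 202. T-ALL 126 and 14 differed on several chromosomes. The DNA copy number that the study took from exome sequencing was not analysed here, and the part of the host cells in these medians was not tested.

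**Figure D5:**
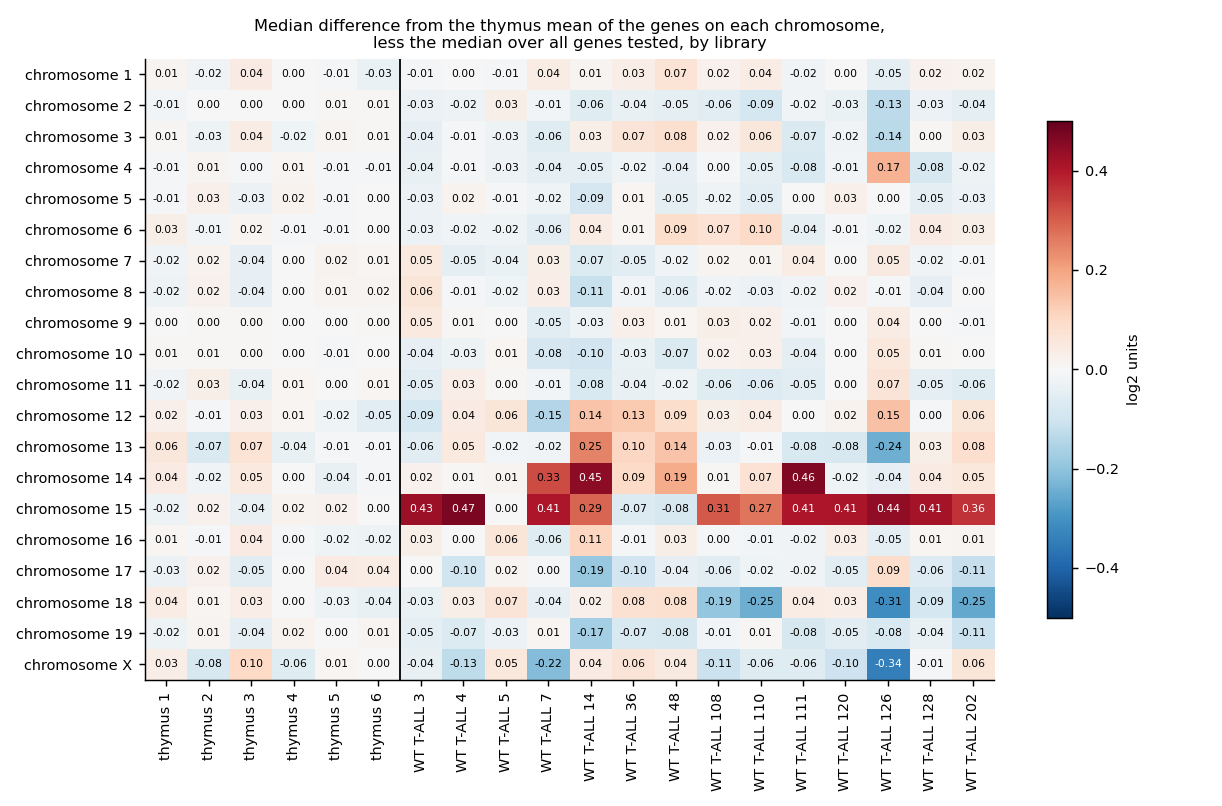
Median level of the tested genes of each chromosome (rows) in each library (columns), relative to the thymus mean and less the median of all genes, on the log2 scale as color with the value printed. Chromosome 15 is above 0.15 in 11 of 14 leukemias and within -0.0373 to 0.0219 in thymus, while chromosome 14 is raised in 4 leukemias and chromosome 18 lowered in 4 others.

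Some genes were high in 1 of the 14 leukemias of wild-type origin. With a level of at least 10 scaled RPKM and a gap of at least 3 log2 units to the next of the 20 libraries, there were 22 such genes: 12 in T-ALL 110, 4 in T-ALL 5, 2 each in T-ALL 7, 14 and 126, and none in the other 9. In T-ALL 110 they included the X-linked germ cell gene Tex11 (5.20, next 0.06) and the eosinophil granule genes Ear1 (6.42, next 2.02), Ear6 (7.29, next 3.06), Prg2 (8.40, next 4.64) and Epx (5.63, next 2.18). The mast cell and eosinophil score was 3.88 in that library, 3.01 in T-ALL 108 and 0.21 to 1.54 in the other leukemias (thymus 0.10 to 0.32). T-ALL 5 was apart in Hist1h2ap, a histone gene (9.07, listed at 0 in the other 19), Gm12669 and Ly6k (8.09). T-ALL 7 was apart in Rnaset2a (6.10) and Gpat2 (4.44), T-ALL 14 in Iqcg (3.98), and T-ALL 126 in Cdkn2a (8.62) and Hspb2 (3.84). Several were not particular to that 1 leukemia once the Notch3 KO leukemias were counted, whose highest values were 8.52 for Hist1h2ap, 7.57 for Ly6k, 5.60 for Rnaset2a, 7.79 for Cdkn2a and 5.82 for Prg2. For Tex11, Gm12669, Gpat2, Iqcg and Hspb2 they were at most 0.49. Histone transcripts without a poly(A) tail and close gene copies are measured unevenly by mRNA kits, so the value of Hist1h2ap is uncertain.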

How the data were processed

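The 23 libraries (KAPA stranded mRNA kit, paired-end sequencing) were aligned by the authors to mm10 with OSA in ArrayStudio. The deposited values are log2 of RPKM plus 1, with RPKM scaled by the authors to a 75th percentile of 10 per library. Counts and depth were not recovered: 61.7 to 71.4% of low values were whole multiples of 1 read within 0.1, and 1 read per 1000 bases was worth 0.0207 to 0.122 scaled RPKM. Gene IDs matched RefSeq (GRCm38.p6) in 99.6% of 24475 rows, and 27 symbols turned into dates were restored. Groups came from the labels. limma 3.58.1 in R 4.3.3 (trend and robust) was fitted to all 3 groups, with Benjamini-Hochberg adjustment over 11919 genes and no block; it was tested on simulated data. Replicate numbers shared by the groups (3, 4 and 5) did not pair libraries (r = -0.24, 0.09 and 0.13). The compared groups and the 33 gene lists (568 of 571 genes in the table) were chosen with earlier results of these data known. Named genes were the 10 largest falls, the 10 largest rises that followed a host score and the 10 that did not, without overlap, with a mean of at least 5 scaled RPKM and leaving out hemoglobin, T-cell receptor, immunoglobulin, ribosomal protein and predicted genes; up to 5 called and 3 other members of each list; and up to 3 genes of each leukemia apart. Patz1, Sh2d1a, Ikzf2, Ikzf1, Xrcc6, Ptcra, Pes1, Nop2, Wdr12, Tyms, Paics, Prf1, Hba-a1, Lfng, Maml1, Zbtb46, Clec9a and the near-absent markers were named after their values were seen. Alternatives covered the offset, filter, samples fitted, normalization, covariates, the replicate block and left-out libraries. Promoters, from 250 bases before to 50 after the start, came from RefSeq. Some genes that the rules name are not reported here.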

Additional observations from a re-analysis of the deposited data

Results flagged for a closer look

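Dixon's test for a library that stands apart was run within the 6 thymus libraries on 173 values (named genes, scores and shares), and flagged 8, no more than the 1 in 20 that chance alone flags. The values are therefore given as a description. Thymus 3 was highest in erythroid content: Alas2 was 1.64 there and 0.159 to 0.381 in the other 5, the erythroid score was 1.63 against 0.838 to 1.1, and the hemoglobin share was 0.117% against 0.00934 to 0.0181%. All 3 values of thymus 3 were still below those of every leukemia except that the lowest leukemia had a hemoglobin share of 0.0874%. Thymus 6 was highest in Tdrp (5.08, others 4.23 to 4.54), and it was lowest in the mitotic cyclin Ccnb1 (4.40, others 5.37 to 5.72) and the glycolysis gene Tpi1 (4.76, others 5.67 to 5.88). Wdr12 was 5.39 in thymus 3 and 4.88 to 5.06 in the others. Rhag was 0.0408 in thymus 1 and 0 in the others. The 14 leukemias were not tested.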

How the results depend on the processing

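Of 141 called genes named, 3 lost the call (Zbtb7b, Ncl, Mki67) and none changed direction when 1 library was left out. Leaving out pairs of thymus libraries, or T-ALL 7 and 110, was added after the data were seen and cost 9 genes the call, with no change of direction. Over single left-out libraries the calls ranged from 5431 (without thymus 6) to 6313 (without T-ALL 110). Fits with host scores moved the counts most: with the erythroid covariate 742 genes were called (304 higher, 438 lower), of which 672 were also called without it and 17 had the opposite sign; with 3 host covariates 973 were called (414 higher, 559 lower), with 786 shared and 19 of opposite sign. Of the 141 named calls, 98 lost the call and 4 changed sign with the erythroid covariate, 94 and 4 with 3 host covariates, and 29 lost it with the replicate block. Signs turned with the erythroid covariate for Sox4 (0.32), Rsad2 (-2.76), Alas2 (-0.86) and Vcam1 (-0.074), and with 3 covariates for Sox4 (0.35), Rsad2 (-2.72), Alas2 (-1.0) and S100a9 (-0.16); the cause was not tested beyond the lack of overlap of the scores. A replicate block on the shared numbers, which do not pair the libraries, left 6 libraries and called 1942 genes (1096 higher, 846 lower), of which 1867 were among the main calls; the same 6 libraries without the block gave 2262 (1222 higher, 1040 lower), so most of the loss came with fewer libraries. Quantile normalization called 5872 genes but 2848 higher and 3024 lower, taking the share of higher calls from 56.8 to 48.5% and the median of all genes from 0.08 to -0.02. Lists of few expressed genes depended on the filter: at 5 scaled RPKM 8 interferon-stimulated genes were lower in place of 13, 6 megakaryocyte genes higher in place of 12 and 1 B-cell gene lower in place of 5. With the erythroid covariate the calls numbered 5 falls in the double-positive list (18 without it), 6 rises in ribosome biogenesis (27), 1 in mitosis (21) and 2 in the erythroid list (22). Read depth was not known, so genes near 0 carry no detection limit here.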
